A study of Rattus norvegicus with 18 samples.

Results

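Isoforms with a read length of 701 to 1000 nt were taken from the full-length transcripts (FLTs) of rat hippocampus by the length written in each isoform identifier. The range held 1362 of the 28268 isoforms, or 4.82%, with a median length of 862 nt. They were compared with the 24740 isoforms of 1001 to 4000 nt, whose median length was 2270.5 nt. The rule reads length alone and no measured level.

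The study sequenced full-length cDNA of rat hippocampus on the PacBio platform and measured the level of each resulting isoform with Illumina libraries. All 12 Illumina libraries used here came from male Sprague Dawley rats of 4 weeks by the labels, which name no genotype or treatment, with 2 libraries in each of 6 groups. One group was whole hippocampus, taken as slices, and a pair of groups were the somata layer and the neuropil layer of CA1, dissected by hand from such slices. The other 3 groups were fractions of a lysate of whole brain, separated on a sucrose gradient into ribosome-free RNA, monosomes and polysomes. The labels do not say whether the libraries of a group came from separate animals, so p-values measure only the spread between these samples, which may be technical. Somata and neuropil name layers of tissue and not purified cells, and in such bulk samples fewer cells of a type and less RNA per cell cannot be told apart. The tables hold no gene names, so no layer could be checked against marker genes.

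A ribosome-free fraction holds mRNA that carries no ribosome, a monosome fraction mRNA with a single one, and a polysome fraction mRNA with several. How many ribosomes fit on an mRNA is limited by the length of its open reading frame. Short mRNAs of neurons include those of ribosomal proteins and of small subunits of the respiratory chain. Neuropil is the layer of dendrites, axons and glial processes, and the mRNA found in it includes transcripts that neurons transport away from the cell body.

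The levels are TPM, the share of a library's transcripts given to one isoform after division by length. They were estimated by RSEM, an algorithm that divides reads among isoforms that share sequence, so an isoform listed at 0 may still have had reads that were given to another. Each library has the same total of TPM, and no sequencing depth is kept, so that no interval for counting error could be given. Of the 1362 members, 85 (6.24%) were listed at 0 in all 12 libraries and 633 (46.5%) were above 0 in all of them. Among isoforms of 1001 to 4000 nt, 7.97% were at 0 in every library and 36.2% were above 0 in every library.

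The identifiers differed between the length classes in more than length. Of the members, 729 (53.5%) carried the code LD1, 283 (20.8%) LD2, 238 (17.5%) LD3 and 112 (8.22%) LD4. Only 329 (1.33%) of the isoforms of 1001 to 4000 nt carried LD1, whereas 44.1% carried LD4. The sources used here do not say what the codes mean. The methods describe cDNA split by size and sequenced as 4 PacBio libraries, and if the codes name those libraries, which is not stated, a value within a code compares isoforms of 1 size-selected library. A circular consensus read, made when the polymerase passes the insert repeatedly, stood behind 90.1% of members and 72.1% of the longer isoforms. Values within a code are given beside the comparisons they touch. The longer isoforms of a code were not matched in length to those of the main comparison, so the contrast is not the same.

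Members held a larger share of the TPM than of the isoforms in every library, and the share was highest in ribosome-free RNA. Their share of the TPM was 16.8% and 16.2% for ribosome-free RNA, 14.8% and 14.7% for monosome RNA, and 12.9% and 13.1% for polysome RNA. The 3 fractions did not overlap in this share. The SD between the libraries of a fraction was at most 0.457 percentage points, whereas the means fell from 16.5% to 14.8% and 13.0%. With 2 libraries against 2, an exact two-sided permutation test cannot go below a p of 0.333, so no p is given. Isoforms of 1001 to 4000 nt moved the other way, with means of 50.7% in ribosome-free, 62.8% in monosome and 73.7% in polysome RNA.

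**Figure D1:**
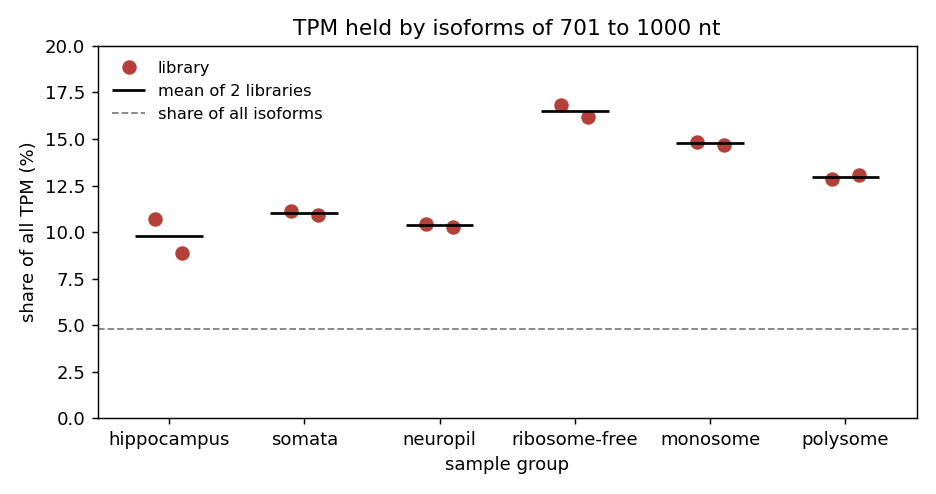
Share of all TPM (%, vertical axis) held by the 1362 isoforms of 701 to 1000 nt in each of the 12 libraries (points) of 6 groups (horizontal axis), with the mean of each group (black bar) and the share of these isoforms among all isoforms (dashed line, 4.82%). Every library lies above the dashed line, and the ribosome-free libraries are the highest at 16.8% and 16.2%.

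Few isoforms made up much of this share. The 10 most abundant members held 37.3% and 37.6% of the members' TPM among ribosome-free RNA, 27.4% and 30.8% among monosome RNA, and 19.5% and 19.6% among polysome RNA. The median member, in contrast, stood at 9.34 and 8.60 TPM in ribosome-free RNA, 12.0 and 12.7 TPM in monosome RNA, and 7.48 and 8.76 TPM in polysome RNA. By the median, the monosome libraries were thus the highest, and ribosome-free and polysome RNA came close to each other. The median isoform of 1001 to 4000 nt was lower in all 6 of these libraries, between 1.85 and 3.70 TPM. It too was highest in the monosome libraries, at 3.68 and 3.70 TPM.

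In the hippocampus the members stood at a higher level than longer isoforms. The median of their mean level was 8.26 TPM, against 4.89 TPM for isoforms of 1001 to 4000 nt. On the log2(TPM + 1) scale the median was 3.21 for members, with 3.15 and 3.19 in the single libraries, and 2.56 for the longer isoforms. A mean over 100 TPM was reached by 188 members (13.8%) and by 6.11% of the longer isoforms, and a mean over 1000 TPM by 16 members (1.17%) and by 0.267%. Both hippocampus libraries listed 287 members (21.1%) at 0, against 24.3% of the longer isoforms. Members held 10.7% of the TPM in hippocampus replicate 1 and 8.88% in replicate 2.

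The order was the reverse once isoforms of the same level in the brain fractions were compared. Isoforms were placed in bins of 1 log2 unit of their mean log2(TPM + 1) over the 6 fraction libraries, and the median hippocampus level of the members was set against that of isoforms of 1001 to 4000 nt in the same bin. Members were lower by a difference of -0.37 log2 units on average over 10 bins, -0.53 and -0.31 with the single hippocampus libraries, and lower in 9 of the bins. In the bin from 4 to 5 log2 units, for example, the median hippocampus level was 4.06 for 135 members and 4.83 for 2287 longer isoforms. Against isoforms of 1001 to 2000 nt alone the difference was -0.20. The tables were made separately and from different tissues and library kits, so this difference is a description and was not tested.

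**Figure D2:**
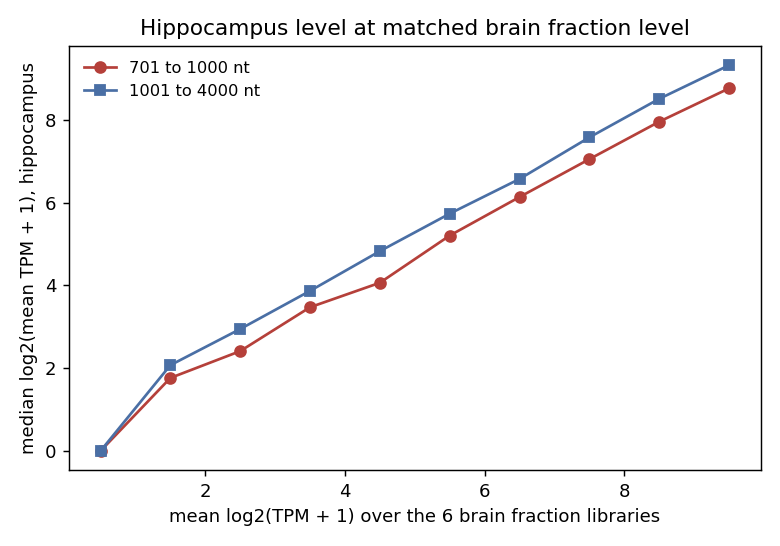
Median hippocampus level (log2 of mean TPM + 1, vertical axis) of isoforms of 701 to 1000 nt (red circles) and 1001 to 4000 nt (blue squares) in bins of their mean level in the 6 brain fraction libraries (log2 scale, horizontal axis). The red points lie below the blue ones in 9 of 10 bins, by -0.37 log2 units on average, and both are at 0 in the lowest bin.

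The most abundant member of the hippocampus was an isoform of 727 nt, RNN_LD1.108_sub_35915_12805_4112_4839_727_SUB0_pTNp_40, with 7832 and 5277 TPM. It stood at 8173 and 7757 TPM in somata and at 5115 and 6042 TPM in neuropil, so both neuropil libraries were below both somata libraries. Between the fractions it was highest in monosome RNA, with 11946 and 12702 TPM, with 5481 and 5220 TPM in the ribosome-free libraries and 2917 and 4146 TPM in those of polysomes. Its monosome level was higher than the ribosome-free level by 1.20 log2 units (SE 0.184, limma adjusted p = 0.00689) and the polysome level was lower than the monosome level (log2 fold change -1.82, adjusted p = 0.00347). The first of these calls held in 12 of 16 alternative settings and the second in 15. The tables do not pair the isoform with a gene.

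Other leading members of the hippocampus had their highest brain levels where ribosomes were bound. The isoform of 708 nt, RSN_LD1.111_ccs_93138_708_0_708_708_SUB0_pTNp_176, had 2780 and 2031 TPM in the hippocampus and rose from 1303 and 1235 TPM in ribosome-free RNA to 4124 and 3787 TPM in polysome RNA (log2 fold change 1.64, adjusted p = 0.00133). The isoform of 774 nt, RNN_LD1.108_ccs_13670_774_0_774_774_SUB0_pTNp_37, had 2207 and 1961 TPM in the hippocampus, and rose from 1118 and 1050 TPM in ribosome-free RNA to 4316 and 4046 TPM in polysome RNA (log2 fold change 1.95, adjusted p = 0.000385). Both were in polysome RNA far above their ribosome-free libraries, with no overlap. The isoform of 837 nt, RNN_LD1.105_ccs_72439_837_0_837_837_SUB0_pTNp_80, peaked in the monosome instead, with 3242 and 2981 TPM there, 1505 and 1382 TPM in ribosome-free and 1891 and 2219 TPM in polysome RNA. Its polysome level was below the monosome level by a log2 fold change of -0.60 (limma adjusted p = 0.0221). That call held in 6 of 16 alternative settings, and after quantile normalization the value was -0.26 (adjusted p = 0.246).

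The fifth leading member, again of 727 nt, had its highest TPM in ribosome-free RNA. This isoform, RSN_LD1.104_ccs_86715_727_0_727_727_SUB0_pTNp_22, had 9989 and 9522 TPM in ribosome-free RNA, 3358 and 4149 TPM in monosome RNA and 1021 and 944 TPM in polysome RNA, while the hippocampus held 2022 and 1368 TPM. Its polysome level was lower than its ribosome-free level by a log2 fold change of -3.31 (SE 0.131, adjusted p = 0.000213). An isoform of 785 nt, RNN_LD1.102_sub_5219_25962_25889_26674_785_SUB0_pNAp_22, behaved alike, with 10656 and 10480 TPM in ribosome-free, 3601 and 3975 TPM in monosome RNA and 1191 and 1073 TPM in polysome RNA (log2 fold change -3.22, adjusted p = 0.000157). These and the first isoform of 727 nt had the highest means over the 6 fraction libraries of all members.

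To ask how members were distributed over the fractions, the polysome and ribosome-free libraries were compared isoform by isoform. A smaller share of members than of all isoforms was called higher in polysome RNA, and a larger share was called lower. Of the 1362 members, 1090 reached a mean of 1 TPM over the 6 libraries and were tested with limma on log2(TPM + 1), among 19667 isoforms of all lengths. In polysome RNA 291 members (26.7%) were higher and 226 (20.7%) lower at an adjusted p under 0.05, whereas 34.1% of all tested isoforms were higher and 11.1% lower. Among isoforms of 1001 to 4000 nt, 34.7% were higher and 10.1% lower. The median log2 fold change was 0.13 for members, with quartiles of -1.10 and 1.24, and 0.67 for the longer isoforms. The members called higher had a median log2 fold change of 1.70 and those called lower of -1.97. Low isoforms appear to change less than they did on this scale, because 1 TPM was added to each value.

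The direction of the members' median depended on how the libraries were scaled. The median over all tested isoforms was 0.63, and quantile normalization brought it to 0.09. With that scaling 196 members were higher and 327 lower, against 20.5% and 17.6% of all isoforms, and the members' median was -0.40. Relative to the median of all isoforms, the members stood at -0.50 in the TPM as deposited and at -0.49 after quantile normalization. With median-ratio size factors it was -0.54.

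The members also stood below longer isoforms of the same level. In 10 bins of 1 log2 unit of the mean level over the fraction libraries, the median log2 fold change of members was below that of isoforms of 1001 to 4000 nt in 9, and by -0.61 on average (SD 0.0854 over the 4 pairs of 1 polysome and 1 ribosome-free library, whose values ran from -0.62 to -0.44). These bins held 1062 of the 1090 tested members, and the others stood at 10 log2 units or more, the highest levels. The pairs share libraries, so their SD is not a spread between independent values. The gap was widest from 3 to 4 log2 units, where 157 members had a median of -0.06 and 2730 longer isoforms one of 0.82. It shrank to -0.23 from 8 to 9 units, and from 9 to 10 units 21 members were above 81 longer isoforms by 0.13. This narrowing did not go on to the highest levels, which no bin covered. Members with a mean over 1000 TPM had a median of -0.86, against 0.44 for longer isoforms of that level. Within a code of the identifiers the difference was -0.25 for LD1, -0.42 for LD2 and -0.68 for LD3. These values rest on fewer members, 452, 185 and 142 in 6, 6 and 5 bins, and have no spread given. For LD1 the longer isoforms are also few, 329 before the filter on level. The part of the code in the result was not tested.

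**Figure D3:**
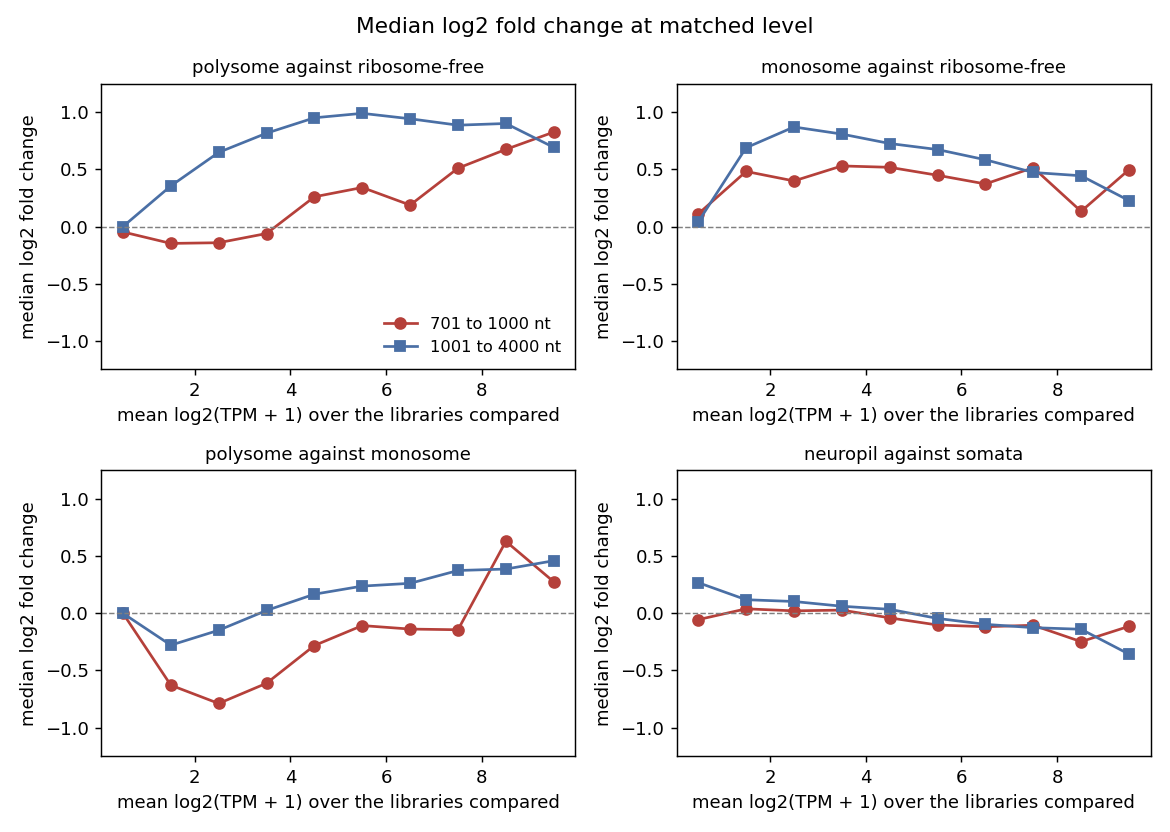
Median log2 fold change (vertical axes) of isoforms of 701 to 1000 nt (red circles) and 1001 to 4000 nt (blue squares) in bins of 1 unit of the mean log2(TPM + 1) over the libraries of the table (6 for the fractions, 4 for the compartments; horizontal axes), for the 4 comparisons. Members lie below longer isoforms in 9 of 10 bins for polysome against ribosome-free RNA (-0.61 on average), and the curves run close together for neuropil against somata (-0.07).

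The members were not uniform along their own range of length. From 701 to 800 nt the median log2 fold change of polysome over ribosome-free RNA stood at -0.06, from 801 to 900 nt it was 0.13, and from 901 to 1000 nt it was 0.26. In the first of these bins 83 of 350 tested isoforms were higher and 82 lower, and in the last 131 of 411 were higher and 74 lower. At the edges, isoforms of 651 to 700 nt had a median of -0.59 and those of 701 to 750 nt one of -0.26, while isoforms of 951 to 1000 nt had a median of 0.37 and those of 1001 to 1050 nt one of 0.56. The medians thus rose across both limits, by more at the lower one. For single members length said little, since Pearson's r between length and log2 fold change was 0.11 over the 1090 tested members, which share their libraries and are not independent replicates.

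**Figure D4:**
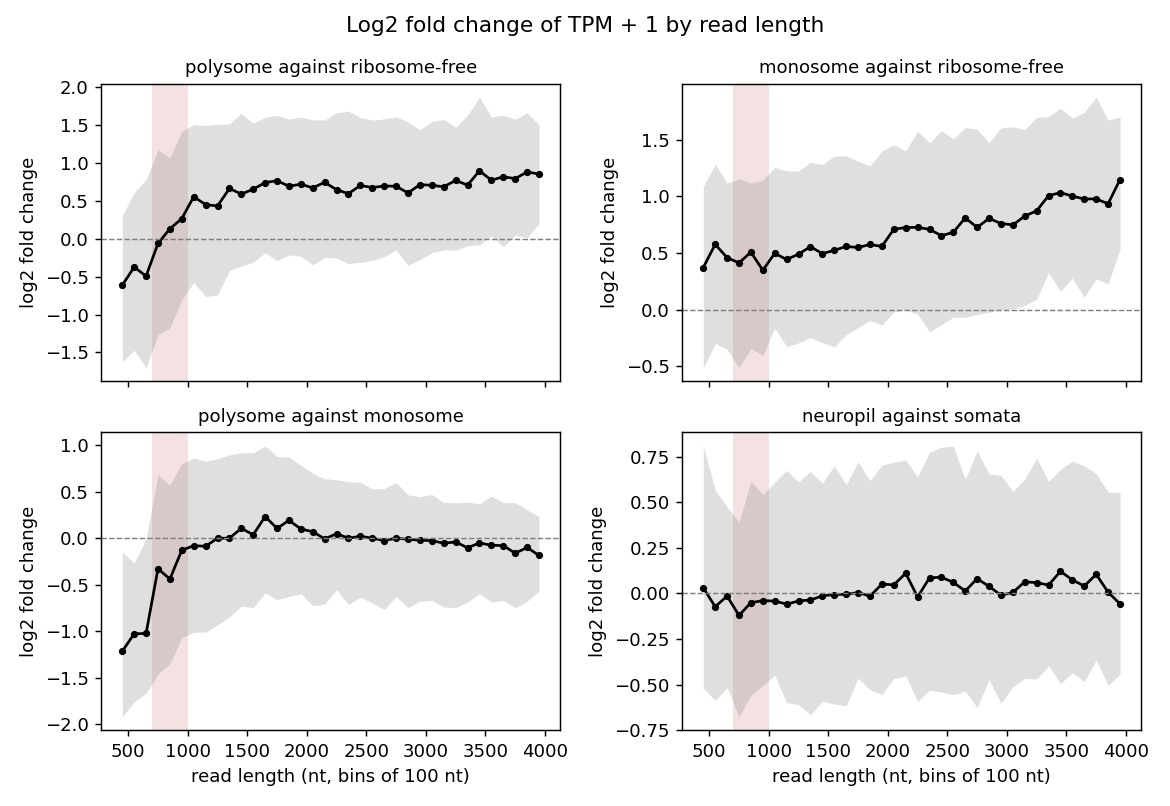
Median log2 fold change of TPM + 1 (black line, vertical axes) and its quartiles (grey band) in bins of 100 nt of read length (horizontal axes, isoforms up to 4000 nt) for the 4 comparisons, with the range of 701 to 1000 nt shaded in red. Within the shaded range the median rises from -0.06 to 0.26 for polysome against ribosome-free RNA, and for polysome against monosome RNA it is -0.33, -0.44 and -0.13 in the 3 bins.

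The calls are given next by level. Of 380 members with a mean of 1 to 10 TPM over the fraction libraries, 34 (8.95%) were higher and 34 (8.95%) lower in polysome RNA, against 16.1% and 7.97% of the isoforms of 1001 to 4000 nt at this level. Of 485 members of 10 to 100 TPM, 151 (31.1%) were higher and 120 (24.7%) lower, against 52.9% and 11.6%. Of 193 members of 100 to 1000 TPM, 98 (50.8%) were higher and 51 (26.4%) lower, against 66.0% and 16.7%. Calls in either direction thus became more common with level in both length classes. Among the 32 members over 1000 TPM the order turned, with 8 higher and 21 lower and a median log2 fold change of -0.86. The 48 isoforms of 1001 to 4000 nt at this level had 25 higher and 18 lower, with a median of 0.44.

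A few members were listed in one of these fractions and not in the other. Both polysome libraries were at 0, and both ribosome-free libraries at 10 TPM or more, in 12 members (1.10% of those tested), against 161 isoforms (0.956%) of 1001 to 4000 nt. The reverse was seen in 10 members (0.917%) and in 348 longer isoforms (2.07%). An example of the first kind was an isoform of 754 nt, RNN_LD1.110_ccs_30281_754_0_754_754_SUB0_pNAp_31, with 384 and 349 TPM in ribosome-free RNA, 23.8 and 13.1 TPM in monosome RNA and 0 in both polysome, hippocampus, somata and neuropil libraries (adjusted p = 0.000175 for polysome against ribosome-free). An isoform of 879 nt, RSN_LD4.102_sub_108209_1365_0_879_879_SUB0_uNAp_31, was listed at 0 in both ribosome-free libraries, at 31.3 and 15.9 TPM in monosome RNA and at 175 and 120 TPM in polysome RNA (adjusted p = 0.000285). No fold is given for these, since one group is at 0.

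Members with a clear peak fell into each of the fractions. Both ribosome-free libraries were above the other 4 libraries in 165 members (15.1%), against 10.7% of all tested isoforms. Both monosome libraries were the highest in 262 members (24.0%), close to 23.7% of all isoforms, and both polysome libraries in 258 members (23.7%), against 27.3%. The members peaking in polysome RNA had a median hippocampus level of 53.4 TPM, those peaking in monosome RNA 21.0 TPM and those peaking in ribosome-free RNA 18.8 TPM. These medians are not given for longer isoforms, so this order is not read as particular to the members. Expressed as the share of an isoform's TPM summed over the 3 fractions, the median member had 27.6% in ribosome-free, 36.0% in monosome and 28.7% in polysome RNA. The median isoform of 1001 to 4000 nt had 21.4%, 36.4% and 36.8%. Because each library has the same total, these are not shares of the RNA molecules in the gradient.

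Between monosome and ribosome-free RNA, more members were called higher than lower in the TPM as deposited, and the reverse held after quantile normalization. In monosome RNA 275 members (25.2%) were higher and 122 (11.2%) lower, against 32.1% and 7.3% of all tested isoforms. The median log2 fold change was 0.42 for members and 0.70 for isoforms of 1001 to 4000 nt. After quantile normalization 156 members were higher and 194 lower, against 16.1% and 13.7% of all isoforms, and the members' median was -0.14. At matched level the members were below the longer isoforms by -0.21 (SD 0.0626 over 4 pairs of libraries) and in 7 of 10 bins. This difference was -0.07 against isoforms of 1001 to 2000 nt, -0.33 with a pseudocount of 0.1, -0.12 within LD1, -0.12 within LD2 and -0.35 within LD3. Without single libraries the level-matched difference ran from -0.32 to -0.20.

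The largest contrasts between monosome and ribosome-free RNA were seen in members that were nearly or wholly missing from one of the fractions. An isoform of 720 nt, RNN_LD1.107_ccs_105459_720_0_720_720_SUB0_pTNp_37, had 150 and 112 TPM in ribosome-free RNA and 16.7 and 53.9 TPM in polysome RNA, while both monosome libraries listed it at 0 (adjusted p = 0.0012 for monosome against ribosome-free). It was well represented in the other tables, with 266 and 156 TPM in the hippocampus. In the opposite direction, an isoform of 805 nt, RNN_LD2.111_ccs_119948_805_0_805_805_SUB0_pNAp_38, had 136 and 87.1 TPM in monosome RNA, 101 and 136 TPM in polysome RNA and 1.68 and 0 TPM in ribosome-free RNA (log2 fold change 6.07, SE 0.52, adjusted p = 0.00147). With ribosome-free values this low the fold depends on the pseudocount, and it ran from 4.30 to 8.01 over the alternative settings.

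Between polysome and monosome RNA, more members were called lower than higher. In polysome RNA 168 members (15.4%) were higher and 246 (22.6%) lower, against 11.6% and 11.6% of all tested isoforms, and 12.1% and 10.1% of the isoforms of 1001 to 4000 nt. The median log2 fold change was -0.27 for members and 0.00 for the longer isoforms. At matched level the difference was -0.41 (SD 0.0681 over 4 pairs of libraries), below 0 in 8 of 10 bins. Within LD1, LD2 and LD3 it was -0.41, -0.27 and -0.35. From 701 to 800 nt 98 of 350 tested members were lower in polysome RNA, and from 901 to 1000 nt 67 of 411. Without single libraries the level-matched difference ran from -0.45 to -0.31.

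To see how members were divided between the layers of CA1, the neuropil and somata libraries were compared. No member passed the test in either direction, and 205 of the 1362 members (15.1%) were listed at 0 in all 4 libraries. Members held 11.1% and 10.9% of the TPM in somata and 10.4% and 10.3% in neuropil. Of the 1070 members tested, 0 were higher and 0 lower in neuropil at an adjusted p under 0.05 (limma), as for 0.0% of all 20393 tested isoforms in each direction, and the smallest adjusted p of a member was 0.179. The study, looking only at neuronal genes with multiple isoforms, reported isoforms significantly enriched in each layer. Its set of isoforms differs from the one tested here, so the results are not set against each other. At an unadjusted p under 0.05, 80 members were higher and 106 lower, against 7.57% and 7.26% of all tested isoforms. With a pseudocount of 0.1 and a constant prior variance, an alternative chosen after the data were seen, 14 members (1.31%) were called higher and 15 (1.40%) lower, near the 1.01% and 1.27% of all tested isoforms.

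The median log2 fold change between neuropil and somata was -0.07 for members and 0.02 for isoforms of 1001 to 4000 nt. At matched level the members were lower by -0.07 and in 8 of 10 bins. The 4 pairs of libraries gave -0.056 to -0.043 (SD 0.00578). The pairs share libraries, so this SD can understate the spread. The small difference at matched level moved with the settings, to -0.02 without neuropil replicate 1 and -0.10 without neuropil replicate 2. It was -0.32 with a pseudocount of 0.1 and -0.02 with one of 5. Within LD1, LD2 and LD3 it was -0.11, 0.03 and -0.30, from 482, 189 and 111 members in 7, 7 and 4 bins. Both neuropil libraries were above both somata libraries in 205 members (19.2%) and below both in 290 (27.1%), against 22.8% and 22.1% of all tested isoforms. The neuropil libraries varied more than the others. Among members averaging 50 TPM or more in the group, the log2 differences between replicates had an SD of 0.783 in neuropil and 0.315 in somata.

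Some members were listed in only one of the layers, but none of these differences passed the adjustment. An isoform of 979 nt, RSN_LD2.106_ccs_121733_979_0_979_979_SUB0_pTNp_26, had 43.9 and 107 TPM in somata and 0 in both neuropil libraries (adjusted p = 0.179). In the brain fractions it rose from 8.39 and 0 TPM in ribosome-free RNA to 464 and 374 TPM in polysome RNA (adjusted p = 0.00563), a call that held in 14 of 16 alternative settings. An isoform of 989 nt, RSN_LD2.105_sub_129737_1976_2347_3336_989_SUB0_uNAp_15, had 30.0 and 56.7 TPM in neuropil and 0 in both somata libraries (adjusted p = 0.179). In the brain fractions its TPM was highest in ribosome-free RNA, at 220 and 225 TPM. Monosome RNA had 57.0 and 60.8 TPM and polysome RNA 8.08 and 14.9 TPM (log2 fold change -4.22 for polysome against ribosome-free, adjusted p = 0.000432).

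Gene symbols could be given to 12 members, 9 symbols in all, through the lists of isoforms with altered signal peptides or unannotated reading frames that the study published. The study listed the Cldn10 member as gaining a signal peptide, and those of Igfbp7, Nme3, Endog, Metrn, Nenf and Ramp1 as losing one. The role given with a symbol is that of its annotated product, which these isoforms may not encode. Those lists were chosen by the study in part from these libraries, so they are not independent evidence of a direction. All 12 were tested between the fractions. Against ribosome-free RNA, 5 passed as higher and 3 as lower in the polysome, where 34.1% and 11.1% of all tested isoforms did. In the monosome 4 passed as higher and 1 as lower, against 32.1% and 7.3% of all. Against monosome RNA, 3 passed as higher and 4 as lower in the polysome, against 11.6% and 11.6% of all. After quantile normalization the same counts were 4 and 4, 3 and 1, and 2 and 5. The shares of all tested isoforms were then 20.5% and 17.6%, 16.1% and 13.7%, and 10.1% and 10.9%. With 12 members, no direction is read from these counts.

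Members paired with genes of secreted proteins divided between the fractions. The study listed those of Metrn, Nenf and Igfbp7 as having lost the signal peptide. Metrn encodes meteorin, a secreted factor of neural cells, and its isoform of 916 nt had 1376 and 1094 TPM in ribosome-free RNA, 423 and 508 TPM in monosome RNA and 74.8 and 94.8 TPM in polysome RNA. It fell at each step, and its polysome level was lower than its ribosome-free level by a log2 fold change of -3.85 (SE 0.184, adjusted p = 0.000258). Nenf encodes neudesin, also secreted, and its isoform of 731 nt had 492 and 575 TPM in ribosome-free, 592 and 658 TPM in monosome RNA and 182 and 200 TPM in polysome RNA (log2 fold change -1.47 for polysome against ribosome-free, adjusted p = 0.000681). Its monosome and ribosome-free levels did not pass the test (adjusted p = 0.182).

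Igfbp7, which encodes a secreted protein that binds insulin-like growth factors, ran the other way. Its isoform of 937 nt had 57.3 and 74.6 TPM in ribosome-free, 133 and 145 TPM in monosome RNA and 240 and 216 TPM in polysome RNA. The polysome level was higher by 1.78 log2 units (SE 0.155, adjusted p = 0.000851), and the 3 fractions did not overlap. A second Igfbp7 isoform of 962 nt was listed at 0 in 9 of the 12 libraries and reached at most 5.57 TPM, in polysome replicate 2. With 0 TPM in the hippocampus, against 293 and 266 TPM for the isoform of 937 nt, it was the minor form in these tables, though reads shared by the pair may have been divided unevenly.

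Cldn10 and Endog rose with ribosomes bound, and Ramp1 peaked in the monosome. Cldn10 encodes a claudin, a protein of tight junctions, and its isoform of 976 nt rose from 31.5 and 36.2 TPM in ribosome-free to 94.8 and 90.3 TPM in monosome RNA and 122 and 114 TPM in polysome RNA (log2 fold change 1.78 for polysome against ribosome-free, adjusted p = 0.000434). Endog encodes endonuclease G, a nuclease of mitochondria, and its isoform of 761 nt rose from 25.5 and 28.2 TPM to 48.3 and 53.0 TPM and 108 and 108 TPM in the same order (log2 fold change 1.98, adjusted p = 0.000353). For Endog the polysome level was above the monosome level too (log2 fold change 1.08, adjusted p = 0.0041), whereas for Cldn10 that step did not pass (adjusted p = 0.0922). Ramp1 encodes an accessory subunit of the receptor for calcitonin gene-related peptide, and its isoform of 983 nt had 119 and 116 TPM in ribosome-free, 470 and 468 TPM in monosome RNA and 151 and 177 TPM in polysome RNA, with a log2 fold change of 1.99 for monosome against ribosome-free (adjusted p = 0.000678) and -1.51 for polysome against monosome (adjusted p = 0.00181).

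Nme3, which encodes a nucleoside diphosphate kinase, had 3 members, and they differed in level and in their distribution. The isoform of 994 nt had 156 and 154 TPM in ribosome-free, 176 and 218 TPM in monosome RNA and 83.9 and 72.8 TPM in polysome RNA, and was lower in polysome than in ribosome-free RNA (log2 fold change -0.98, SE 0.14, adjusted p = 0.00402). The isoform of 890 nt had 50.6 and 25.4 TPM, 83.0 and 69.2 TPM and 41.3 and 58.9 TPM in the same order, and the isoform of 758 nt 30.1 and 26.1 TPM, 38.2 and 35.8 TPM and 27.8 and 24.6 TPM. Neither passed the test for polysome against ribosome-free RNA (adjusted p = 0.369 and 0.635). After quantile normalization the isoform of 758 nt was lower in polysome RNA (log2 fold change -0.78, adjusted p = 0.0148), and its adjusted p ran from 0.0148 to 0.982 over 16 alternatives, 2 of which called it. Whether the 3 isoforms differed from each other was not tested. In all 3 both monosome libraries were the highest of the 6, as in 23.7% of all tested isoforms. None of the 3 passed the test for monosome against ribosome-free RNA (limma adjusted p = 0.12, 0.073 and 0.0943 for 994, 890 and 758 nt). After quantile normalization that log2 fold change was -0.04, 0.53 and -0.17 in the same order, so the peak depended on the scaling.

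LOC301124, a locus with no role given here, had 1 member of 721 nt and 1 longer isoform of 3449 nt. The member had 355 and 318 TPM in ribosome-free, 452 and 382 TPM in monosome RNA and 793 and 721 TPM in polysome RNA (log2 fold change 1.17 for polysome against ribosome-free, adjusted p = 0.00148). The isoform of 3449 nt had 186 and 184 TPM, 250 and 214 TPM and 335 and 359 TPM in the same order, with a log2 fold change of 0.90 (adjusted p = 0.00218), so both forms were higher in polysome RNA. A member of 776 nt was listed by the study under the symbol Hm13 for an open reading frame in an intron, so that the symbol names only the locus. It stood between 4.54 and 20.7 TPM in the 6 fraction libraries, with overlapping libraries of ribosome-free and polysome RNA (adjusted p = 0.44).

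**Figure D5:**
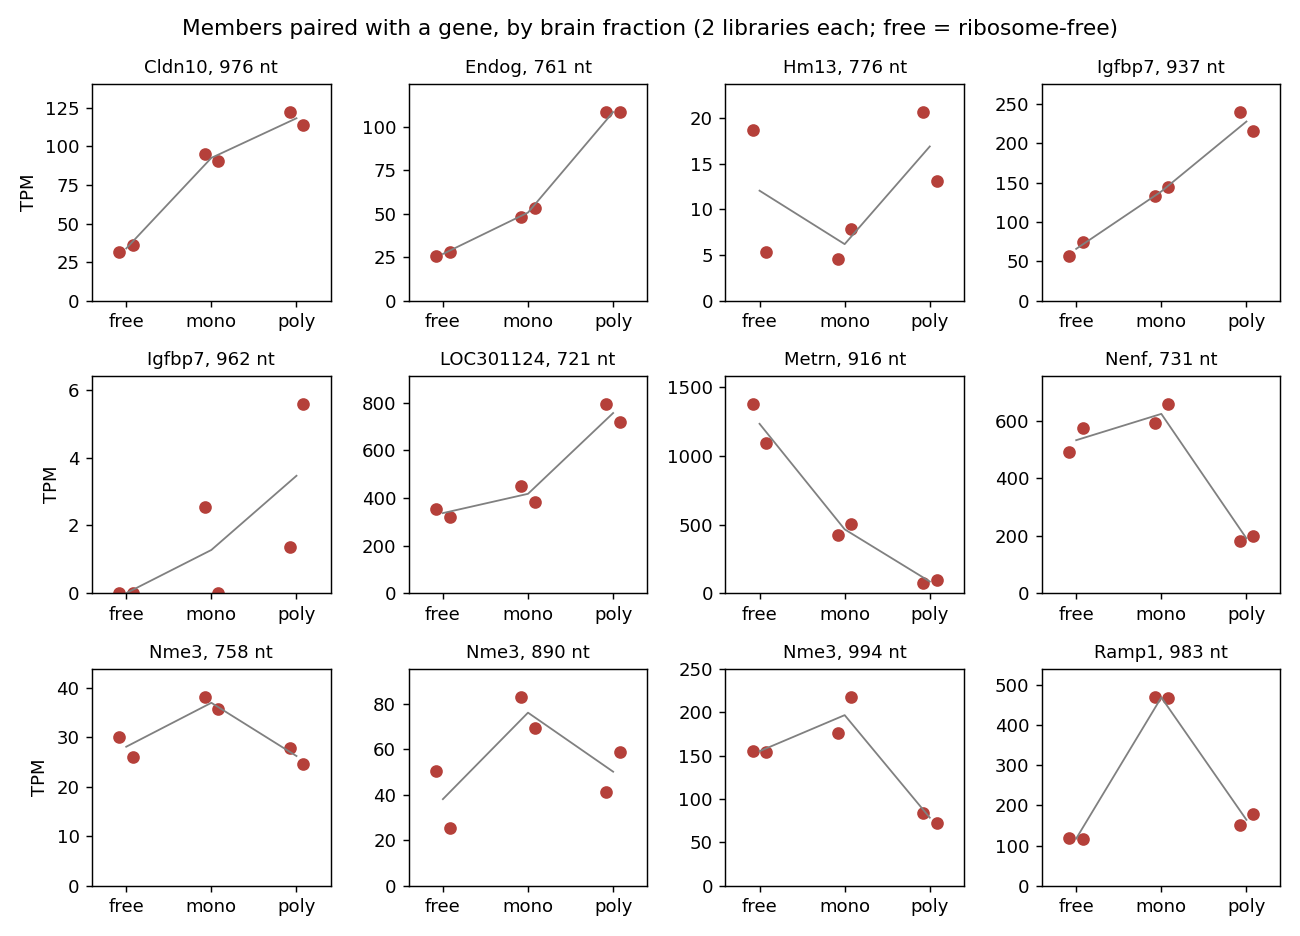
TPM (vertical axes, each from 0) of the 12 members paired with a gene in the ribosome-free (free), monosome (mono) and polysome (poly) libraries (horizontal axes); points are the 2 libraries of a fraction and lines join their means. Igfbp7 (937 nt), Cldn10, Endog and LOC301124 are highest in polysome RNA, Metrn is highest in ribosome-free RNA, and Ramp1, Nenf and Nme3 are highest in monosome RNA.

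None of these members passed the test between neuropil and somata, for which 11 were tested. Both neuropil libraries were above both somata libraries in 6 and below both in 3, where 22.8% and 22.1% of all tested isoforms were. Metrn had 133 and 154 TPM in somata and 305 and 316 TPM in neuropil (log2 fold change 1.11, SE 0.129, adjusted p = 0.179). The Igfbp7 isoform of 937 nt had 239 and 255 TPM in somata and 408 and 453 TPM in neuropil (log2 fold change 0.80, adjusted p = 0.179), and Cldn10 had 108 and 116 TPM in somata and 219 and 216 TPM in neuropil (log2 fold change 0.96, adjusted p = 0.179). Ramp1, with 34.3 and 38.5 TPM in somata and 67.6 and 62.7 TPM in neuropil, Nenf, with 143 and 130 TPM against 186 and 164 TPM, and Endog, with 50.2 and 47.0 TPM against 51.7 and 72.2 TPM, were the others with both neuropil libraries higher. Both were lower for the Nme3 isoform of 890 nt, with 23.5 and 26.8 TPM in somata and 10.1 and 18.7 TPM in neuropil, and for LOC301124, with 259 and 275 TPM in somata and 153 and 235 TPM in neuropil. They were also lower for the member at Hm13, with 36.8 and 39.3 TPM in somata and 16.0 and 19.1 TPM in neuropil (log2 fold change -1.08, adjusted p = 0.21).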

How the data were processed

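RNA from male Sprague Dawley rats was measured in 12 Illumina libraries, 2 each of whole hippocampus, CA1 somata, CA1 neuropil and, from whole brain, ribosome-free, monosome and polysome RNA. The labels call the RNA polyadenylated, whereas the methods of the study name an mRNA kit for hippocampus and a total RNA kit for the fractions. The authors removed adapters with flexbar, built a reference from their full-length transcripts and ran RSEM with Bowtie 2, giving the deposited TPM values for 28268 isoforms, written to 2 decimals in 3 tables. The submitters' processing notes list RSEM and TopHat2. The stated RSEM arguments are for paired-end reads, while the hippocampus libraries are described as single-end. All tests were run within a table. Depth is unknown, because TPM keep no counts. The 6 ribosome footprinting libraries were not used here.

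Members and lists were chosen with earlier results of these data known. The test was limma (version 3.58.1, R version 4.3.3; lmFit, then eBayes with trend), applied to log2(TPM + 1). It was two-sided, p-values were adjusted by Benjamini-Hochberg over every isoform averaging 1 TPM or more in the table, and an adjusted p under 0.05 counted as a call. The 6 fraction libraries shared a fit, and the 4 compartment libraries another. Level-matched differences are medians of members minus medians of isoforms of 1001 to 4000 nt in bins of 1 log2 unit, weighted by the number of members, and bins with under 20 isoforms of either kind were left out. Summaries and plots used Python 3.11.15, pandas 2.3.3, numpy 2.4.6 and matplotlib 3.10.9. The test was tried on simulated data. Alternatives changed the pseudocount, filter, scaling, prior variance, libraries, bins and comparison isoforms.

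Named isoforms were, by rule, all members that the study's supplementary lists pair with a gene, with other isoforms of those genes, the 3 highest and 3 lowest log2 fold changes of each comparison among called members of at least 10 TPM whose groups do not overlap (an unadjusted p under 0.05 where none was called), and the members of highest mean level, 5 in hippocampus and 3 in the fractions. Of these 39 isoforms, those not described in the text enter its counts. Gene symbols came from those lists, and 8 of the 9 were found among RefSeq symbols.

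Replicate numbers were checked for pairing by correlating the deviations of same-numbered libraries from their group means across isoforms. The correlations were 0.0022, 0.0026, -0.0099 and 0.033 over the 4 comparisons, so the numbers were not treated as pairs.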

Additional observations from a re-analysis of the deposited data

How the results depend on the processing

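The level-matched differences between fractions stayed below 0 in all settings run. For polysome against ribosome-free RNA the main -0.61 moved by more than its SD to -0.78 with a pseudocount of 0.1, -0.46 with one of 5, -0.48 with no filter on the mean TPM, -0.52 against isoforms of 1001 to 2000 nt, and -0.25 and -0.42 within LD1 and LD2 (-0.68 within LD3), and leaving out single libraries gave -0.71 to -0.49. For monosome against ribosome-free RNA the main -0.21 became -0.33, -0.14 and -0.073 with pseudocounts of 0.1 and 5 and against isoforms of 1001 to 2000 nt, -0.12, -0.12 and -0.35 within LD1, LD2 and LD3, and -0.32 to -0.20 without single libraries. For polysome against monosome RNA the main -0.41 became -0.30 with a pseudocount of 5, -0.33 with no filter, -0.49 against isoforms of 1001 to 2000 nt and -0.27 within LD2, and -0.45 to -0.31 without single libraries. The cause of these shifts was not tested. The values within codes were chosen after the data were seen, and LD4 gave none, since no bin held 20 members.

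For neuropil against somata the main -0.07 became -0.32 and -0.022 with pseudocounts of 0.1 and 5, -0.035 with no filter, -0.053 with a mean of at least 5 TPM, -0.081 after quantile normalization, -0.040 against isoforms of 1001 to 2000 nt, -0.11, 0.026 and -0.30 within LD1, LD2 and LD3, and -0.10 to -0.021 without single libraries, so its size and, within LD2, its sign depended on the setting. The calls of 0 members became 14 higher and 15 lower with a pseudocount of 0.1 and a constant prior variance. Without single libraries they stayed at 0.

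Scaling moved the counts. With median-ratio size factors 189 members were higher and 336 lower in polysome than in ribosome-free RNA, in place of 291 and 226. Of all tested isoforms 21.2% were then higher and 17.8% lower. In monosome RNA 114 members were higher and 242 lower in place of 275 and 122, against 15.4% and 15.0% of all. Quantile normalization gave 156 and 194 for the last pair, against 16.1% and 13.7% of all. Leaving out single libraries gave 207 to 286 higher and 168 to 204 lower for polysome against ribosome-free, 157 to 270 and 74 to 103 for monosome against ribosome-free, and 61 to 167 and 121 to 240 for polysome against monosome. The lone library left in a group was then assumed to vary like the other groups.

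The hippocampus median of 3.21 became 3.06 and 3.73 with pseudocounts of 0.1 and 5, 4.28 among members with a mean of at least 1 TPM there and 3.43 as a mean, and 3.15 to 3.19 in single libraries. Its level-matched difference of -0.37 became -0.20 against isoforms of 1001 to 2000 nt and -0.53 to -0.31 in single libraries.

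With the replicate block, 280 members were higher and 212 lower in polysome than in ribosome-free RNA, 257 and 104 in monosome than in ribosome-free RNA, 142 and 208 in polysome than in monosome RNA, and 0 and 0 in neuropil than in somata, so no count moved by over 1.5 times. Of all tested isoforms, the replicate block called 31.7% higher and 9.99% lower, 27.8% and 6.21%, and 9.07% and 8.57% in the first 3 comparisons. With 2 libraries a group and unknown depth, small differences in single isoforms of low level could not be resolved.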
